A study of Arabidopsis thaliana with 12 samples.

Results

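The MIR156 and MIR157 loci of Arabidopsis thaliana encode a family of near-identical microRNAs, and 10 of them were followed by locus identifier among 32420 gene loci. They were MIR156a (AT2G25095), MIR156b (AT4G30972), MIR156c (AT4G31877), MIR156d (AT5G10945), MIR156e (AT5G11977), MIR156f (AT5G26147), MIR157a (AT1G66783), MIR157b (AT1G66795), MIR157c (AT3G18217) and MIR157d (AT1G48742). Small RNA was sequenced from whole seedlings, 10 days old, of wild-type Col-0 and of dcl4-2, which carries a mutant allele of DCL4, the Dicer known for making 21-nt siRNAs such as tasiRNAs. Both genotypes were raised on MS, a complete mineral medium, or on MS-N, which lacks nitrogen. Each of the 4 groups, 2 media for either genotype, had 3 libraries, described as biological replicates, and the mutant was represented by 1 allele. Reads of 21 nt and of 22 nt had been tabulated separately for every locus.

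MicroRNAs are cut from a hairpin in a primary transcript by DCL1, another Dicer, and guide an ARGONAUTE protein to messenger RNAs with which they pair. In young seedlings miR156 and miR157 are known for holding the plant in its juvenile phase. They repress SQUAMOSA PROMOTER BINDING PROTEIN-LIKE (SPL) transcription factors, which promote adult leaf traits and flowering, and SPL factors in turn raise miR172. Each hairpin gives a 5p arm, the classical microRNA, and a 3p arm from the facing strand.

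The lengths of the arms set which reads a table can hold, so the arms annotated by RefSeq on TAIR10.1 are shown, with the seed (bases 2 to 8) in capitals. All 10 loci matched that annotation by identifier, and no 3p arm is annotated there for MIR156e and MIR157d.

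miR156a to miR156f, 5p: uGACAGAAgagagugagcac

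miR157a, miR157b and miR157c, 5p: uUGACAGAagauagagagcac

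miR157d, 5p: uGACAGAAgauagagagcac

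miR156a, 3p: gCUCACUGcucuuucugucaga

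miR156b, 3p: uGCUCACCucucuuucugucagu

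miR156c, 3p: gCUCACUGcucuaucugucaga

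miR156d, 3p: gCUCACUCucuuuuugucauaac

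miR156f, 3p: gCUCACUCucuauccgucacc

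miR157a and miR157b, 3p: gCUCUCUAgccuucugucauc

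miR157c, 3p: gCUCUCUAuacuucugucacc

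The 5p arm is the same 20 nt at all 6 MIR156 loci, and miR157d is also 20 nt long. Exact copies of these arms are therefore in neither table, and the 21-nt and 22-nt reads of these loci are longer forms or other parts of the hairpin. miR156 and miR157d have the same seed. miR157a to miR157c begin 1 base earlier, which shifts the seed by that base. Their 5p arm of 21 nt lies in 3 loci and the 3p arm of MIR157a in 2, MIR157a and MIR157b. The 3p arms of MIR156a and MIR156c, 22 nt each, have 1 exact match each in the genome.

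The hairpins of MIR156e and MIR156f, whose reads moved in opposite directions on MS-N, are shown with the annotated mature arms in capitals. MIR156e lies at chr5:3867207-3867313, on the plus strand, and MIR156f at chr5:9136106-9136237, on the plus strand, of TAIR10.1. Both are annotated as microRNA genes.

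MIR156e: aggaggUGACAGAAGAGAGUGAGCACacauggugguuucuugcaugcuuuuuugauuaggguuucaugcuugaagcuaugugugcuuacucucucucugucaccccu

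MIR156f: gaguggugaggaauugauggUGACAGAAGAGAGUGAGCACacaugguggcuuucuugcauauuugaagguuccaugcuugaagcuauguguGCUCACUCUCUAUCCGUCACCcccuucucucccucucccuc

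Of the 21-nt windows of these hairpins, 13 of 87 in MIR156e and 13 of 112 in MIR156f also occur in another of the 10 loci. The tables do not say which window a read came from, and how reads with several matches were counted is not given in the sources used here.

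Values are normalized reads, the authors' group means split into their 3 libraries, and levels are means ± SD with n = 3. The 21-nt and 22-nt tables were normalized separately, with size factors of 0.727 to 1.53 and 0.722 to 1.45. Libraries are numbered within a group and table by size factor, so a number does not mark the same plants elsewhere. As a check of the labels, the 21-nt tasiRNA class, which DCL4 makes, held 26379 ± 3899.6 rpm in Col-0 and 1128 ± 147 rpm in dcl4-2 on MS, and 45790.4 ± 4749 and 2675 ± 175 rpm on MS-N. The whole 21-nt microRNA class moved with both factors, from 85653 ± 8204 rpm in Col-0 on MS to 145602 ± 5189 on MS-N, and from 111687 ± 7732 to 211199 ± 9553 in dcl4-2. Results are therefore also given, where they change, with libraries scaled to a common sum of the microRNA reads that were split (microRNA scaling). That sum includes the 10 loci themselves, MIR157a and MIR157b both, so the scaling takes out part of their own changes. At 21 nt they held 14335 of 75755 in Col-0 on MS and 33613 of 205332 in dcl4-2 on MS-N. The sum leaves out the most abundant microRNA loci, which were not split, and it moved otherwise than the class. At 21 nt it was 2.09 times as high in dcl4-2 as in Col-0 on MS, where the class in rpm was 1.3 times as high. Between media it rose less than the class, 1.52 against 1.7 times in Col-0 and 1.3 against 1.89 times in dcl4-2. At 22 nt it also rose less than the class between media. Between genotypes it differed more than the class throughout. The other ratios of dcl4-2 to Col-0 were 1.78 against 1.45 on MS-N at 21 nt. At 22 nt they were 1.47 against 1.22 on MS and 1.78 against 1.38 on MS-N. Seedlings are a mixture of tissues, in which fewer cells of a type and less RNA per cell cannot be told apart.

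**Figure D1:**
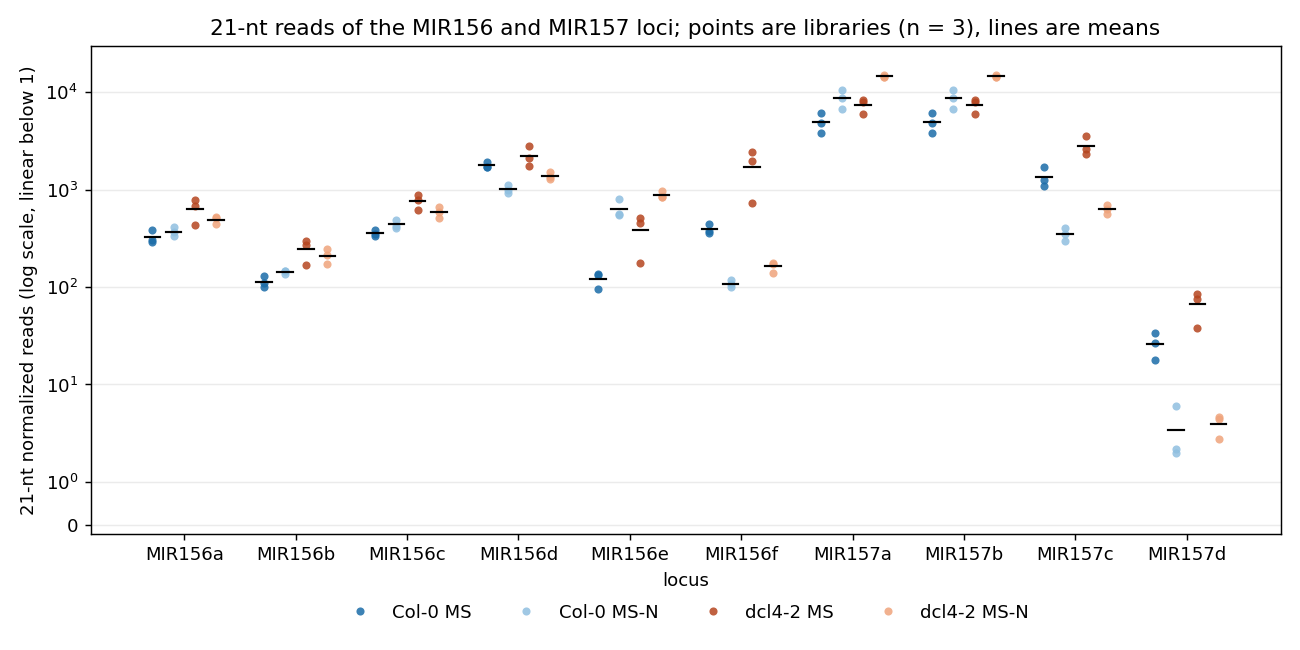
21-nt normalized reads (log axis, linear below 1) of the 10 loci in every library of the 4 groups, with group means as lines. MIR157a and MIR157b sit highest and MIR157d lowest in all 4 groups, and MIR156f in dcl4-2 on MS spreads from 739 to 2424.

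Among 21-nt reads MIR157a and MIR157b stood far above the other loci. Per 100 bases of hairpin, the 21-nt level in Col-0 on MS was 5019.8 ± 1179 at MIR157a, 3727 ± 876 at MIR157b, 1525 ± 106 at MIR156d and 626 ± 154 at MIR157c. MIR156c (343 ± 27.9), MIR156f (298 ± 33.3) and MIR156a (265 ± 43.8) followed, and neighbours among these 3 overlapped between libraries, as MIR157a and MIR157b did. MIR156e (114 ± 21.3), MIR156b (62.2 ± 8.12) and MIR157d (11.8 ± 3.6) were lowest and did not overlap. Before division by length MIR157a and MIR157b held near-equal means of 4919.4 and 4919.7. Their gap here comes from hairpins of 98 and 132 bases. Undivided, MIR156e (122 ± 22.8) and MIR156b (114 ± 14.9) overlapped.

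The order was another on MS-N, where MIR156e was the fourth in Col-0, at 595 ± 139 per 100 bases, and MIR157c the seventh, at 161 ± 24.4. In dcl4-2 on MS-N the same 2 loci held the same places, at 830.3 ± 71.4 and 291 ± 30. In dcl4-2 on MS all neighbours from MIR156d, the third at 1903 ± 458, down to MIR156e, the eighth at 357 ± 167, overlapped. Before division by length MIR157c (2832 ± 631) stood above MIR156d (2246 ± 540) there, with overlap. In dcl4-2 on MS-N undivided MIR157c (632 ± 65.1) stood above MIR156c (589 ± 71.7).

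MIR157a and MIR157b could not be told apart. Their whole 21-nt reads were equal in 8 of 12 libraries and differed by 1 read in the other 4, and at 22 nt they were equal in 11 of 12, so values of MIR157a stand for both. MIR157c, which carries the same 5p arm and another 3p arm, held 27.6% of the 21-nt reads per locus of MIR157a in Col-0 on MS, but 3.99% on MS-N. For dcl4-2 the values were 37.9% and 4.32%. Most 21-nt reads counted at MIR157a were thus not counted at MIR157c in any group.

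**Figure D2:**
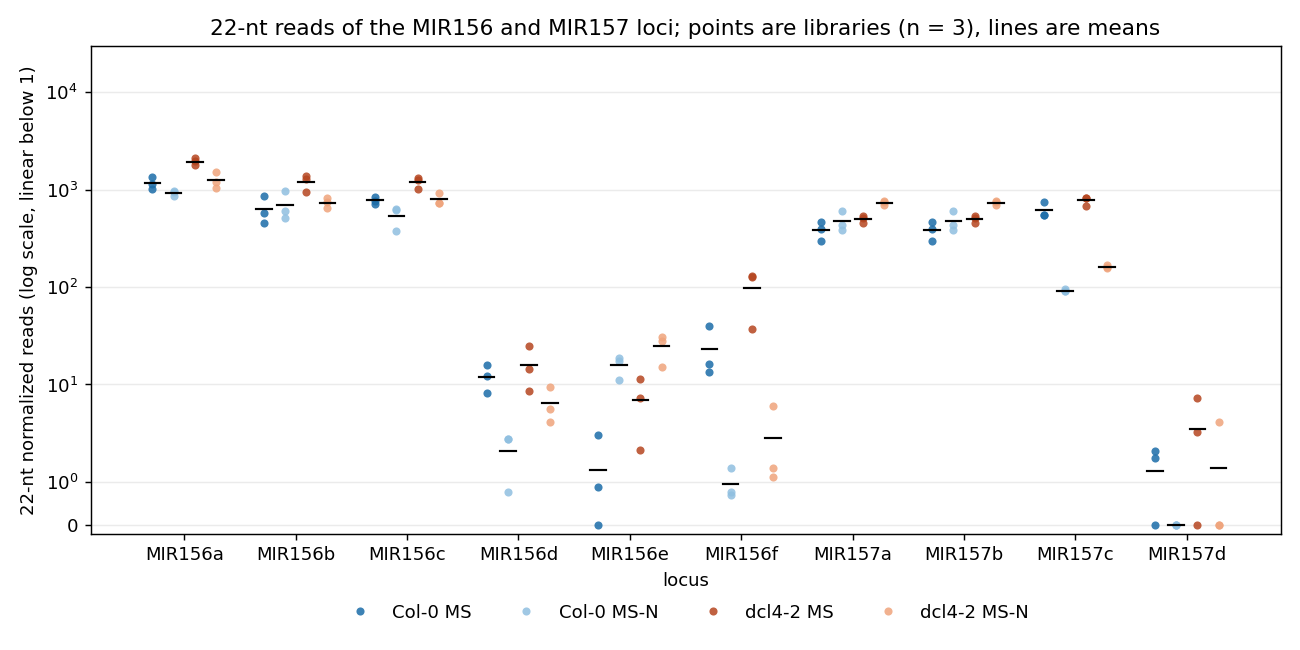
22-nt normalized reads (log axis, linear below 1) of the 10 loci in every library of the 4 groups, with group means as lines. MIR156a, MIR156b and MIR156c lie at 376 or above in every library, while MIR156d, MIR156e and MIR157d stay at 30.9 or below.

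Per 100 bases of hairpin MIR156a and MIR156c led among 22-nt reads in every group, although MIR156c overlapped MIR157a on MS-N in both genotypes. The place of MIR156c depended on division by length. Undivided, MIR156b stood above MIR156c in Col-0 on MS-N (698.9 against 541.4), with overlap. In dcl4-2 on MS their undivided means were near equal (1203.6 and 1202.8). MIR156c stood above MIR156b undivided in Col-0 on MS (779.0 against 628.7) and in dcl4-2 on MS-N (798.7 against 735.0). In Col-0 on MS the 22-nt level per 100 bases of hairpin was 954 ± 127 at MIR156a, 749 ± 64.2 at MIR156c and 393 ± 87.6 at MIR157a. MIR156b (344 ± 112), MIR157b (292 ± 65) and MIR157c (283 ± 52.5) came next, each overlapping its neighbour. Undivided, MIR157c (614 ± 114) stood above MIR157a (385 ± 85.9). The other 4 loci were at 17.5 ± 10.8 (MIR156f) or less. On MS-N in Col-0, MIR157c was at 42.5 ± 1.12 per 100 bases, well below MIR157a at 485 ± 119.

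The first question was how nitrogen deprivation altered the family, and at 21 nt its members moved in both directions. In Col-0, 3 of the 10 loci rose (MIR156e, MIR157a and MIR157b) and 4 fell (MIR156d, MIR156f, MIR157c and MIR157d), where 2.12% of all loci tested rose and 3.9% fell. The median change of the 10 was log2 0.25, beside 0.09 over all loci. In dcl4-2 the same 3 rose and the same 4 fell, against 8.48% and 4.67% of all loci, with medians of log2 -0.35 and 0.28. Shares were larger among abundant loci. In a fit of the 2815 loci at 10 or above in 3 or more libraries, 357 rose and 551 fell in Col-0, and 576 and 737 in dcl4-2.

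MIR156e, 1 of the 6 sources of miR156, rose most. Its 21-nt reads were 137, 134 and 96.1 in the libraries of Col-0 on MS and 544, 808 and 558 on MS-N. Every MS-N library was above every MS library, a 5.2-fold difference of means (log2 2.36 ± 0.24 SE, limma adjusted p = 1.53e-11). In dcl4-2 the reads were 458, 511 and 178 on MS, against 976, 840.1 and 849 on MS-N. These groups did not overlap either, library 3 on MS being low (2.32-fold, log2 1.35 ± 0.24 SE, limma adjusted p = 3.69e-05). Without that library the rise was log2 0.87.

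MIR156f, which gives the same 5p arm, fell. Its 21-nt reads were 443, 361 and 375 in Col-0 on MS and 117, 107 and 101 on MS-N. The groups lay well apart, and the mean was 3.63-fold lower on MS-N (log2 -1.85 ± 0.25 SE, limma adjusted p = 4.97e-08). In dcl4-2 the libraries held 1985, 2424 and 739 on MS, against 141, 171 and 179 on MS-N, 10.5-fold lower (log2 -3.22 ± 0.25 SE, limma adjusted p = 8.06e-16). Even the lowest MS library was above all of those on MS-N.

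MIR157c and MIR157d fell in both genotypes. MIR157c, the other source of the 21-nt miR157, held 1730.4, 1257 and 1086 in Col-0 on MS and 401, 295 and 349 on MS-N, 3.9-fold lower (log2 -1.94 ± 0.19 SE, limma adjusted p = 5.10e-12). In dcl4-2 its means were 2832 ± 631 and 632 ± 65.1, 4.48-fold lower (log2 -2.14 ± 0.19 SE, limma adjusted p = 2.64e-13). Neither pair of groups overlapped. MIR157d, the weakest locus, went from 33.6, 17.7 and 26.9 to 1.96, 6.05 and 2.16 in Col-0 (log2 -2.70 ± 0.41 SE, limma adjusted p = 9.97e-07). The groups did not overlap and rested on 84 and 15 whole reads. In dcl4-2 MIR157d went from 66.6 ± 25.1 to 3.92 ± 1.02 (log2 -3.72 ± 0.41 SE, limma adjusted p = 2.06e-10).

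MIR157a rose while MIR157c, with the same 5p arm, fell. The 21-nt reads of MIR157a were 3806, 6112 and 4840.2 in Col-0 on MS and 6779, 10552 and 8855 on MS-N, 1.77-fold higher (log2 0.83 ± 0.16 SE, limma adjusted p = 1.60e-04). The lowest MS-N library stood above the highest MS library. In dcl4-2 the libraries held 7932, 8385 and 6069.5 on MS, against 14979, 14514 and 14376 on MS-N, 1.96-fold higher (log2 0.98 ± 0.16 SE, limma adjusted p = 6.72e-06). With microRNA scaling the rise in Col-0 did not pass (log2 0.23, limma adjusted p = 0.532), and that in dcl4-2 passed narrowly (log2 0.60, limma adjusted p = 0.049). The sum behind this scaling rose 1.3-fold in dcl4-2, and the microRNA class in rpm 1.89-fold.

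MIR156d held the most 21-nt reads per base of the MIR156 loci on MS, and it fell in both genotypes. Its libraries held 1944, 1727 and 1728 in Col-0 on MS and 1128, 1003 and 934 on MS-N, 1.76-fold lower without overlap (log2 -0.82 ± 0.18 SE, limma adjusted p = 7.97e-04). In dcl4-2 its means were 2246 ± 540.1 and 1386 ± 128 (log2 -0.67 ± 0.18 SE, limma adjusted p = 0.00584). MIR156a, MIR156b and MIR156c did not pass in either genotype. Their values were log2 0.19, 0.33 and 0.30 in Col-0, where microRNA scaling turned all 3 negative, and -0.32, -0.19 and -0.37 in dcl4-2. The Col-0 groups of MIR156b and MIR156c did not overlap all the same. MIR156a passed as lower in dcl4-2 without library 3 on MS (log2 -0.57). With microRNA scaling MIR156c passed in dcl4-2 (log2 -0.75, limma adjusted p = 0.0324).

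Without limma's mean-variance trend, 4 of the 7 calls in Col-0 and 3 of the 7 in dcl4-2 stood. Those of MIR156d, MIR157a and MIR157b ended in both genotypes, at a limma adjusted p of 0.356 to 0.36 in Col-0. In dcl4-2 that of MIR156e ended as well, and the 4 lay at 0.0743 to 0.336. MIR156d in dcl4-2 also ended with only the 2 groups compared (limma adjusted p = 0.0603). The calls of MIR156f, MIR157c and MIR157d stood in both genotypes.

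**Figure D3:**
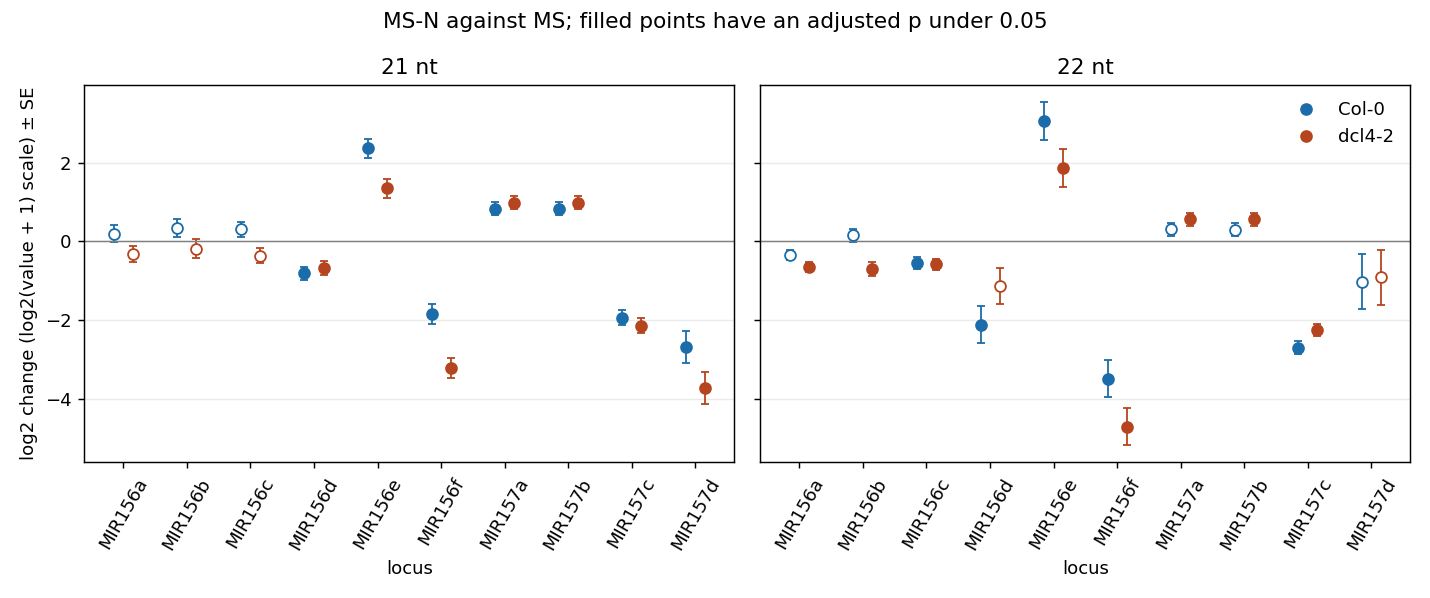
Log2 change ± SE on MS-N against MS for each locus at 21 nt and 22 nt, in Col-0 and in dcl4-2, with filled points for an adjusted p under 0.05. MIR156e lies above 0, and MIR156f and MIR157c below it, at both lengths in both genotypes.

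At 22 nt MIR156e was the 1 locus that rose in Col-0, and 4 fell, MIR156c, MIR156d, MIR156f and MIR157c, where 1.82% of all loci rose and 4.54% fell. In dcl4-2, 3 rose (MIR156e, MIR157a and MIR157b) and 5 fell (MIR156a, MIR156b, MIR156c, MIR156f and MIR157c), against 9.9% and 5.76% of all loci. The medians of the 10 were log2 -0.45 in Col-0 and -0.68 in dcl4-2, and those of all loci 0.02 and 0.32. In a fit of the 3931 loci at 10 or above in 3 or more libraries, 462 rose and 736 fell in Col-0, and 690 and 990 in dcl4-2.

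MIR156e and MIR156f moved in opposite directions in this table as well, at low depth. MIR156e held 0.878, 3.06 and 0 22-nt reads in Col-0 on MS and 18.7, 11.1 and 17.4 on MS-N (log2 3.05 ± 0.48 SE, limma adjusted p = 8.03e-06), from 4 and 66 whole reads. The groups did not overlap. In dcl4-2 its means were 6.87 ± 4.57 and 24.7 ± 8.32 (log2 1.86 ± 0.48 SE, limma adjusted p = 0.006), a call that ended with microRNA scaling (log2 1.28, limma adjusted p = 0.0711) and without library 3 of dcl4-2 on MS (limma adjusted p = 0.0671). MIR156f held 39.5, 16.3 and 13.6 in Col-0 on MS and 0.691, 1.38 and 0.754 on MS-N (log2 -3.50 ± 0.47 SE, limma adjusted p = 2.11e-07). Its MS-N value came from 4 whole reads. In dcl4-2 MIR156f held 127, 129 and 37.5 on MS, against 1.12, 5.95 and 1.39 on MS-N (log2 -4.72 ± 0.47 SE, limma adjusted p = 1.33e-10), again without overlap.

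MIR157c gave more 22-nt reads per base than either, and they fell. Its libraries held 745, 544 and 552 in Col-0 on MS and 91.2, 90.6 and 95 on MS-N, 6.65-fold lower (log2 -2.71 ± 0.16 SE, limma adjusted p = 5.04e-18). In dcl4-2 its means were 776 ± 76.5 and 161 ± 5.96, 4.81-fold lower (log2 -2.25 ± 0.16 SE, limma adjusted p = 3.76e-15). MIR157a, with the same 5p arm, took the other direction in dcl4-2. It held 501 ± 41.8 on MS and 736 ± 28.3 on MS-N (log2 0.56 ± 0.16 SE, limma adjusted p = 0.0118), which turned negative with microRNA scaling (log2 -0.04, limma adjusted p = 0.917) and did not pass without library 2 of dcl4-2 on MS (log2 0.49).

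MIR156a, MIR156b and MIR156c, the loci with more 22-nt than 21-nt reads, fell in dcl4-2. MIR156a held 2112, 1963 and 1775 on MS, against 1204, 1035 and 1526 on MS-N (log2 -0.65 ± 0.13 SE, limma adjusted p = 2.17e-04). MIR156b (log2 -0.70, limma adjusted p = 0.00439) and MIR156c (log2 -0.59, limma adjusted p = 0.00462) fell too, and none of these 3 loci overlapped between media. In Col-0, MIR156a held 1337, 1026 and 1158 on MS, against 860.1, 949 and 960.3 on MS-N, and did not pass (log2 -0.34, limma adjusted p = 0.11), but did with microRNA scaling (log2 -0.66, limma adjusted p = 0.00129). MIR156c fell there from 779 ± 66.8 to 541 ± 144 (log2 -0.56 ± 0.15 SE, limma adjusted p = 0.0127). The call was lost without Col-0 library 1 from MS-N (log2 -0.32), library 1 of Col-0 on MS (log2 -0.57) or library 3 of Col-0 on MS (log2 -0.49).

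The remaining loci were scarce at 22 nt. MIR156d fell in Col-0 from 12 ± 3.77 to 2.09 ± 1.16 (log2 -2.12 ± 0.46 SE, limma adjusted p = 0.00123), on 37 and 9 whole reads, and did not pass in dcl4-2 (log2 -1.13, limma adjusted p = 0.0848) although it did with microRNA scaling (log2 -1.62, limma adjusted p = 0.0105), with a pseudocount of 5 (limma adjusted p = 0.0394) and without library 3 on MS (log2 -1.48). MIR157d passed in neither genotype, with 4 and 0 whole reads in Col-0 and 10 and 3 in dcl4-2. Without the mean-variance trend 4 of the 5 calls in Col-0 stood, where MIR156c ended, and 3 of the 8 in dcl4-2, those of MIR156e, MIR156f and MIR157c. With only the 2 groups compared MIR156c ended in dcl4-2 (limma adjusted p = 0.0518) and MIR156a passed in Col-0 (0.043), and with a pseudocount of 0.1 MIR156e ended in dcl4-2 (0.138).

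The second question was whether the family stood at other levels in the mutant of DCL4, which is not the enzyme known for microRNA hairpins. On MS, 8 of the 10 loci were higher in dcl4-2 at 21 nt, beside 0.582% higher and 0.809% lower among all loci, with medians of log2 1.06 and -0.08. On MS-N, 3 were higher, MIR157a, MIR157b and MIR157c, beside 2.4% higher and 2.24% lower, with medians of log2 0.52 and 0.14. MicroRNA scaling moved the 10 loci by a median of log2 -1.06 on MS and -0.84 on MS-N, and all loci by -0.63 and -0.43. Its sum was 66685 to 80729 in the Col-0 libraries on MS and 134259 to 172206 in those of dcl4-2. Under this scaling 1 of the 8 still passed and the 3 did not. Among all 17891 loci tested with it on MS, 29 were higher in dcl4-2 and 2760 lower. Without the mean-variance trend all 8 calls on MS ended, at a limma adjusted p of 0.0858 to 0.719, and so did the 3 on MS-N, at 0.297 to 0.356. The part of the whole microRNA class in these differences was not tested.

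The locus that passed with microRNA scaling was MIR156f, which did not pass without the trend (limma adjusted p = 0.0858). Its 21-nt mean on MS was 393 ± 43.9 in Col-0 and 1716 ± 874 in dcl4-2, 4.37-fold higher without overlap (log2 1.96 ± 0.25 SE, limma adjusted p = 4.51e-08), and it passed with microRNA scaling (log2 0.90, limma adjusted p = 0.0167). MIR156e was 3.12-fold higher in dcl4-2 (log2 1.51 ± 0.24 SE, limma adjusted p = 1.56e-05), but not past the threshold with microRNA scaling (log2 0.46, limma adjusted p = 0.237). The libraries of MIR156c held 388, 331 and 350.3 in Col-0 and 791, 890.1 and 613 in dcl4-2 on MS, 2.15-fold higher (log2 1.09 ± 0.20 SE, limma adjusted p = 1.81e-04). With microRNA scaling hardly any difference was left (log2 0.03, limma adjusted p = 0.956).

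MIR156a (log2 0.93, limma adjusted p = 0.00441), MIR156b (log2 1.06, limma adjusted p = 0.00386) and MIR157c (log2 1.06, limma adjusted p = 1.75e-04) were also higher on MS without overlap. The call of MIR156a ended without library 2 or 3 of Col-0 or library 2 of dcl4-2, and that of MIR156b without library 2 of Col-0 or library 1 of dcl4-2. Over all fits without 1 library MIR156a ran from log2 0.75 to 1.17 and MIR156b from log2 0.90 to 1.32. MIR157a was higher (log2 0.61, limma adjusted p = 0.0281) although its groups overlapped, and this call ended without library 1 or 3 of Col-0 or library 1 or 2 of dcl4-2. MIR157a also ended with a pseudocount of 0.1 (limma adjusted p = 0.0704), a filter of at least 10 (0.157) or only the 2 groups compared (0.367). Its lowest value without a library was log2 0.44. With microRNA scaling MIR156a and MIR157a turned negative without passing. MIR156d (log2 0.29, limma adjusted p = 0.624) and MIR157d (log2 1.29, limma adjusted p = 0.122) did not pass, and MIR156d passed as lower in dcl4-2 with microRNA scaling (log2 -0.76, limma adjusted p = 0.0191). MIR157d passed with only the 2 groups compared (limma adjusted p = 0.0215), with a pseudocount of 5 (0.013) and without library 3 of dcl4-2 on MS (log2 1.64).

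On MS-N MIR157a was 1.68-fold higher in dcl4-2 than in Col-0 without overlap (log2 0.77 ± 0.16 SE, limma adjusted p = 0.00128). It did not pass when Col-0 library 1 from MS-N was left out (log2 0.60), nor with microRNA scaling (log2 -0.07, limma adjusted p = 0.906). MIR157c was 1.82-fold higher (log2 0.86 ± 0.19 SE, limma adjusted p = 0.00261), and likewise lost with microRNA scaling (log2 0.02, limma adjusted p = 0.99). The other 7 loci did not pass, with values from log2 0.26 to 0.58, of which MIR156f did with only the 2 groups compared (limma adjusted p = 0.0466).

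At 22 nt, MIR156a, MIR156b, MIR156c, MIR156e and MIR156f were higher in dcl4-2 on MS, beside 0.893% higher and 0.581% lower among all loci. In a fit of the 3931 loci at 10 or above in 3 or more libraries, 233 were higher and 149 lower. MIR156a was 1.66-fold higher (log2 0.74 ± 0.13 SE, limma adjusted p = 1.34e-04). MIR156b was at 629 ± 206 and 1204 ± 224 (log2 0.97 ± 0.18 SE, limma adjusted p = 3.57e-04). Neither overlapped, and neither passed with microRNA scaling (log2 0.18, limma adjusted p = 0.553 for MIR156a and log2 0.41, limma adjusted p = 0.197 for MIR156b). The call of MIR156c (log2 0.62, limma adjusted p = 0.0139) ended without library 1 or 2 of either genotype, and it ran from log2 0.55 to 0.73 over such fits. With microRNA scaling it did not pass (log2 0.06, limma adjusted p = 0.883). MIR156e (log2 1.79, limma adjusted p = 0.0415) and MIR156f (log2 1.99, limma adjusted p = 0.0113) passed with microRNA scaling too, but their groups overlapped. Without library 1 or 3 of Col-0 or library 1 or 2 of dcl4-2 the call of MIR156e ended, and without library 2 or 3 of Col-0 or library 1 or 2 of dcl4-2 that of MIR156f. Over such fits they ran from log2 1.30 to 2.35 and from log2 1.69 to 2.57. Without the mean-variance trend all 5 calls ended, at a limma adjusted p of 0.23 to 0.658. With only the 2 groups compared MIR156a (0.076), MIR156c and MIR156e ended, and with a pseudocount of 0.1 MIR156c, MIR156e and MIR156f.

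On MS-N at 22 nt, MIR156a, MIR156c, MIR157a, MIR157b and MIR157c were higher in dcl4-2 by log2 0.43 (MIR156a) to 0.80 (MIR157c), beside 4.22% higher and 2.12% lower among all loci. In a fit of the 3931 loci at 10 or above in 3 or more libraries, 745 were higher and 610 lower. With microRNA scaling all 5 turned negative and none passed. The sum behind this scaling was 1.78 times as high in dcl4-2 as in Col-0 here, and the microRNA class in rpm 1.38 times. The call of MIR157c stood in all fits that left out 1 library, and that of MIR156a only in the fit without library 2 of dcl4-2 on MS-N. The call of MIR156c ended without Col-0 library 1 or dcl4-2 library 3, and those of MIR157a and MIR157b without Col-0 library 2 or 3. Their values ran from log2 0.28 to 0.56 for MIR156a, from log2 0.35 to 0.72 for MIR156c and from log2 0.52 to 0.85 for MIR157a. Without the mean-variance trend all 5 calls ended, at a limma adjusted p of 0.228 to 0.544, and with a filter of at least 10 that of MIR156a ended (0.0595) while MIR156d passed (0.0426). MIR156b did not pass (log2 0.12, limma adjusted p = 0.724), and passed as lower in dcl4-2 with microRNA scaling (log2 -0.72, limma adjusted p = 0.00432). With that scaling 2088 of 18471 loci were lower and 146 higher.

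**Figure D4:**
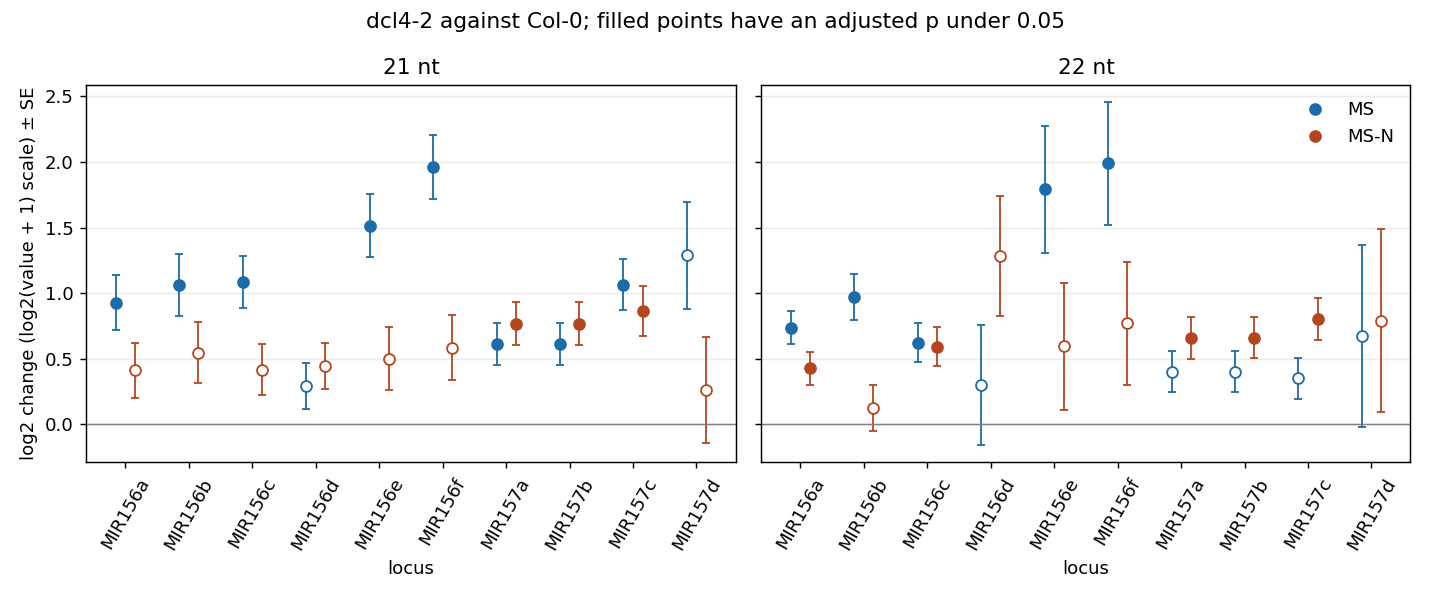
Log2 difference ± SE of dcl4-2 against Col-0 for each locus at 21 nt and 22 nt, on MS and on MS-N, with filled points for an adjusted p under 0.05 in the deposited scaling. At 21 nt on MS 8 loci are filled, all above 0, the highest being MIR156f at 1.96, with microRNA scaling 1 of these 8, MIR156f, still passed, and without the mean-variance trend none.

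Whether the response to nitrogen differed between genotypes was asked with the interaction of genotype and medium. At 21 nt it passed for MIR156f alone (log2 -1.38 ± 0.35 SE, limma adjusted p = 0.0478), where 0.464% of all loci passed. In a fit of the 2815 loci at 10 or above in 3 or more libraries, 326 passed. The fall of MIR156f was log2 -1.85 in Col-0 and -3.22 in dcl4-2. The call ended with microRNA scaling (log2 -1.15, limma adjusted p = 0.109), without the mean-variance trend (limma adjusted p = 0.382), with a pseudocount of 0.1 (0.197), with no filter (0.0758) and in 11 of 12 fits that left out 1 library, standing only without library 3 of dcl4-2 on MS (log2 -1.90). MIR156e did not pass (log2 -1.01, limma adjusted p = 0.14), and did without that library (log2 -1.49). At 22 nt 0 of the 10 loci passed in limma, where 2.05% of all loci did. An unadjusted p under 0.05 was found for 3355 of 20155 loci, and for 1 of the 10, MIR156b (log2 -0.85, limma adjusted p = 0.0616). It passed with microRNA scaling (log2 -1.13, limma adjusted p = 0.013) and without library 1 of Col-0 on MS, library 3 of Col-0 on MS-N or library 3 of dcl4-2 on MS, and ran from log2 -1.09 to -0.58 over the 12 fits.

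The share of 22-nt reads divided the family in another way. MIR156a, MIR156b and MIR156c gave more 22-nt than 21-nt reads in all 4 groups, and the other 7 loci in none. At MIR156b the share of 22-nt reads in the 21-nt and 22-nt level, from tables that were normalized separately, was 84.7% on MS and 83% on MS-N in Col-0, and 83.1% on MS and 77.7% on MS-N in the mutant. At MIR156a the share was 78.2%, 71.3%, 75.4% and 71.8% in the same order. At MIR156c it was 68.6%, 55.1%, 61.1% and 57.6%. The annotated 3p arms of MIR156a and MIR156c are 22 nt long and that of MIR156b 23 nt. That of MIR156d is 23 nt long too, at a share of at most 0.702%. Whether arm length bears on the share was not tested.

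MIR157c came next, with 31.1% in Col-0 on MS, 20.9% on MS-N, and 21.5% and 20.3% in dcl4-2. MIR157a stayed between 4.79% and 7.26%. At MIR156f the share was 5.56% in Col-0 on MS and 0.862% on MS-N, with exact 95% Clopper-Pearson intervals of its whole reads of 4.36 to 6.89% and 0.227 to 2.11%. MIR156d held at most 0.702% and MIR156e at most 2.7%. The shares were not tested between groups, and the intervals cover counting error only.

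**Figure D5:**
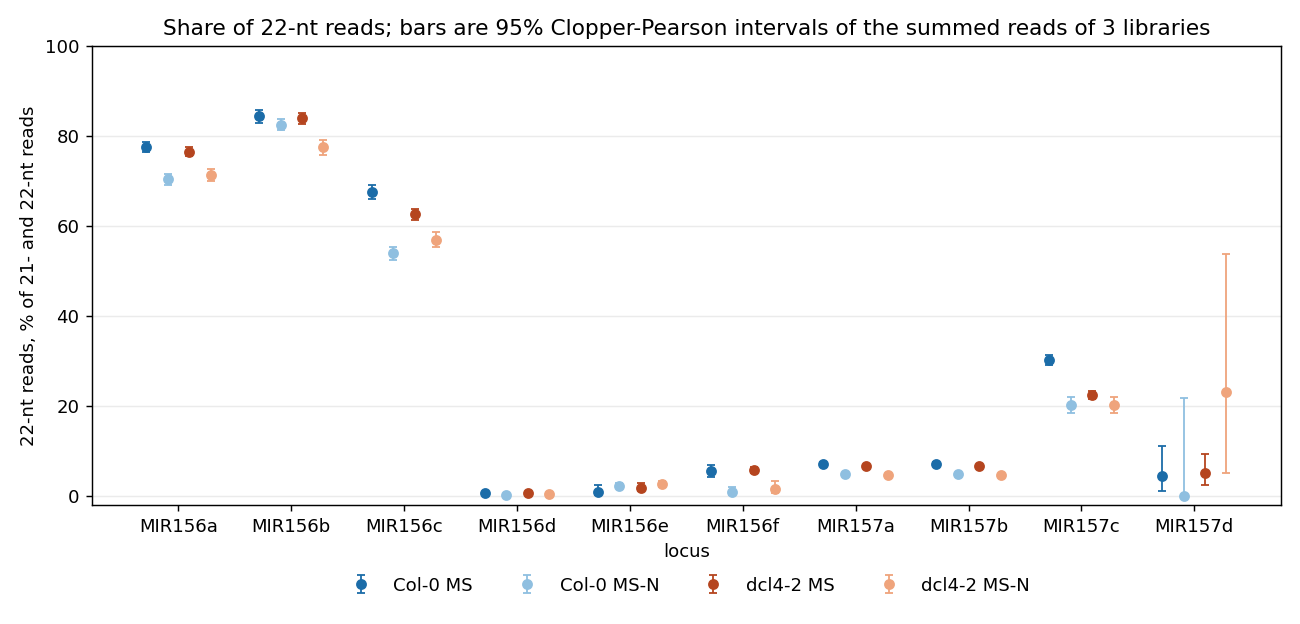
22-nt reads as a percentage of the 21-nt and 22-nt whole reads of each locus and group, with 95% Clopper-Pearson intervals of reads summed over 3 libraries. MIR156a, MIR156b and MIR156c lie above 50% in every group and the other loci below it, where the interval of MIR157d in dcl4-2 on MS-N, on 13 reads, is the widest.

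Summed over the 10 loci, 21-nt reads were 14335 ± 1887 in Col-0 on MS and 20531 ± 3720.3 on MS-N, a ratio of 1.43. In dcl4-2 the sums were 23811 ± 3773 and 33613 ± 391, a ratio of 1.41. Counting MIR157a and MIR157b once, these ratios were 1.25 and 1.16. Without MIR157a and MIR157b they were 0.684 and 0.491. Over the 6 MIR156 loci alone the ratios were below 1, at 0.875 in Col-0, from 3112 ± 276 to 2722 ± 203, and at 0.623 in dcl4-2, from 5988 ± 1030.1 to 3731 ± 182. At 22 nt the sums over the 10 loci gave ratios of 0.805 and 0.712. The 21-nt sum was thus higher on MS-N with MIR157a and MIR157b and lower without them. Sums were not tested.

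The authors' deposited table holds its own comparisons for 3 of these contrasts. On MS-N against MS at 21 nt, the authors' deposited table gives an adjusted p under 0.05 to 7 of the 10 loci in Col-0, beside 8.89% of the loci with an adjusted p, and to 7 in dcl4-2, beside 9.47%. For dcl4-2 against Col-0 on MS-N the authors' deposited table gives it to 3, beside 12.2%. At 22 nt the numbers in the authors' deposited table are 4 (11.6%), 8 (15.2%) and 4 (13.8%) in the same order. Of these 60 results of the 10 loci, 33 passed both in the authors' deposited table and in limma, with the same sign. The other 2 that passed in limma, both at 22 nt, were MIR156c in Col-0 and MIR156a between genotypes on MS-N, whose adjusted p in the authors' deposited table is 0.0651 and 0.066. For MIR156e at 21 nt the authors' deposited table has log2 2.38 in Col-0 and 1.22 in dcl4-2, and for MIR156f -1.86 and -3.39.

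The SPL genes are the targets of the family, and their sites show how miR156 and miR157 differ in pairing. The best match to each 5p arm in the RefSeq transcript is given for 2 of them, with bases that form no Watson-Crick pair with the microRNA in capitals.

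SPL9, site for miR156: gugcucUcucucuucuguca

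SPL9, site for miR157: gugcucucuCucuucugucaa

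SPL3, site for miR156: UugcuUacucucuucuguca

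SPL3, site for miR157: UugcuUAcuCucuucugucaG

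SPL9, which promotes adult leaf traits, has 1 base without a Watson-Crick pair with either arm. SPL3, a small SPL factor, has 2 with miR156 and 5 with miR157, of which some face the microRNA as G and U and can still pair. The 6 SPL genes listed as lacking a site have 6 to 8 bases without a Watson-Crick pair with miR156.

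Small RNA reads at the SPL loci were few, and they do not measure the messenger RNA. Of the 11 targeted SPL genes, 7 passed the filter on low values at 21 nt and 6 at 22 nt. In limma 0 of them passed in any of the 5 comparisons. Over all loci 90 to 2552 of 19403 passed per comparison at 21 nt, and 297 to 3157 of 20155 at 22 nt. An unadjusted p under 0.05 was found in 1 of 35 tests at 21 nt (SPL9) and 2 of 30 at 22 nt (SPL13A and SPL13B). Over all loci 1919 to 5174 of 19403 had one per comparison at 21 nt, and 2059 to 5927 of 20155 at 22 nt. SPL13A and SPL13B had the highest means among the targeted SPL genes. SPL13A was at 4.39 ± 1.1 21-nt reads in Col-0 on MS and 6.6 ± 0.583 on MS-N.

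Of the 6 SPL genes without a site, 5 were tested at each length, and those that passed did so in dcl4-2 on MS-N. Among all loci 8.48% rose there at 21 nt and 9.9% at 22 nt, and 4.22% were higher than in Col-0 at 22 nt. SPL14 rose from 1.5 ± 1.7 to 12.1 ± 2 21-nt reads (log2 2.63 ± 0.51 SE, limma adjusted p = 1.31e-04). SPL12 rose at 21 nt (log2 1.58, limma adjusted p = 0.0324) and SPL14 (log2 2.02, limma adjusted p = 0.0145) and SPL1 (log2 1.34, limma adjusted p = 0.0429) at 22 nt, and with microRNA scaling these 3 did not pass. At 22 nt SPL14 was also higher in dcl4-2 than in Col-0 on MS-N (log2 1.85, limma adjusted p = 0.0473), a call that ended with microRNA scaling (log2 1.16, limma adjusted p = 0.259). In the 6 fits that left out 1 library, SPL14 passed in 6 at 21 nt, and at 22 nt in 5 for medium and 1 for genotype, SPL12 in 2 and SPL1 in 2. The groups of SPL12 overlapped. Without the mean-variance trend SPL14 stood for medium at both lengths and the other 3 calls ended. With microRNA scaling SPL1, SPL12 and SPL14 at 21 nt and SPL1 at 22 nt passed as lower in dcl4-2 on MS. So did 2760 of 17891 loci at 21 nt, where 29 were higher. At 22 nt 871 of 18471 were lower and 114 higher.

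MIR156G and MIR156H, MIR156 loci outside the 10, rose on MS-N at 21 nt in both genotypes, with microRNA scaling as well. Among all loci 2.12% rose in Col-0 and 8.48% in dcl4-2. MIR156G held 7.74, 1.87 and 4.13 21-nt reads in Col-0 on MS and 66.8, 61.8 and 54.8 on MS-N, 13.3-fold higher without overlap (log2 3.62 ± 0.36 SE, limma adjusted p = 9.32e-12). In dcl4-2 it rose from 6.25 ± 2.73 to 115 ± 23.9 (log2 4.05 ± 0.36 SE, limma adjusted p = 3.04e-13). MIR156H rose from 1.23 ± 0.429 to 15.2 ± 6.8 in Col-0 (log2 2.78 ± 0.50 SE, limma adjusted p = 4.68e-05) and from 1.53 ± 1.77 to 24.5 ± 8.98 in dcl4-2 (log2 3.53 ± 0.50 SE, limma adjusted p = 2.88e-07). Both thus took the direction of MIR156e. At 22 nt MIR156G passed too, in Col-0 (log2 2.31, limma adjusted p = 0.0118) and in dcl4-2 (log2 3.09, limma adjusted p = 2.95e-04), though the Col-0 result stood in 3 of 6 fits that left out 1 library.

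Of the 5 MIR172 loci, whose microRNA represses APETALA2-like factors and acts after miR156 in phase change, 4 rose at 21 nt on MS-N in both genotypes, and all 4 passed with microRNA scaling. Among all loci 2.12% rose in Col-0 and 8.48% in dcl4-2. MIR172B held 18.9, 9.33 and 20.7 in Col-0 on MS and 58.3, 44.4 and 54.1 on MS-N (log2 1.68 ± 0.30 SE, limma adjusted p = 4.13e-05), and 25.1 ± 4.35 and 121 ± 4.86 in dcl4-2 (log2 2.24 ± 0.30 SE, limma adjusted p = 8.32e-08). MIR172E rose from 16 ± 6.64 to 54.4 ± 5.16 in Col-0 (log2 1.79 ± 0.31 SE, limma adjusted p = 1.63e-05). MIR172C and MIR172D, at lower levels, rose by log2 2.62 and 1.92 in Col-0 and by 2.94 and 2.99 in dcl4-2. The Col-0 result of MIR172D stood in 3 of 6 fits that left out 1 library and ended without the mean-variance trend (limma adjusted p = 0.105). With a pseudocount of 0.1 the Col-0 results of MIR172C (limma adjusted p = 0.0623) and MIR172D (limma adjusted p = 0.21) ended. The median of the 5 was log2 1.79 in Col-0, and in dcl4-2 it was 2.69, beside 0.09 and 0.28 over all loci. Between genotypes on MS-N, MIR172B (log2 1.21, limma adjusted p = 0.0101) and MIR172E (log2 1.28, limma adjusted p = 0.00649) were higher in dcl4-2, and neither passed with microRNA scaling or without the trend. In that comparison 2.4% of all loci were higher. At 22 nt 3 MIR172 loci were tested, of which 0 passed in limma and 0 of 15 tests had an unadjusted p under 0.05. Over all loci 2059 to 5927 of 20155 had one per comparison.

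Of the 6 targets of miR172, 5 were tested at each length, and TOE1 and AP2, APETALA2-like factors that repress flowering, passed. Among all loci 8.48% rose on MS-N in dcl4-2 at 21 nt and 9.9% at 22 nt. At 22 nt 4.22% were higher in dcl4-2 on MS-N, and 2.05% passed for the interaction. The 22-nt reads of TOE1 were 2.05, 3.09 and 0 in dcl4-2 on MS and 37.9, 26.2 and 48.5 on MS-N (log2 4.01 ± 0.55 SE, limma adjusted p = 4.53e-07). In Col-0 its means were 1.86 ± 1.43 and 2.55 ± 2.08, and the interaction passed (log2 3.76 ± 0.78 SE, limma adjusted p = 0.00444), with microRNA scaling too, but not without the mean-variance trend (limma adjusted p = 0.0982) or with a pseudocount of 0.1 (0.114). TOE1 was also higher in dcl4-2 than in Col-0 on MS-N at 22 nt (log2 3.57, limma adjusted p = 1.11e-05). At 21 nt TOE1 (log2 1.79, limma adjusted p = 0.00574) and AP2 (log2 2.18, limma adjusted p = 0.0173) rose on MS-N in dcl4-2, as AP2 did at 22 nt (log2 1.74, limma adjusted p = 0.0405), and these 3 did not pass with microRNA scaling. The AP2 results stood in 4 and 2 of 6 fits that left out 1 library. TOE2, the next most abundant, was at 2.19 ± 2.15 21-nt reads in Col-0 on MS.

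The loci most like the summed 21-nt reads of the family were ranked by Pearson's r of log2 values over the 12 libraries, among 1776 loci outside the 10 with a mean of at least 10 normalized reads. They were PRIN2, a protein-coding gene (r = 0.964), and the microRNA loci MIR393a (0.932), MIR160c (0.922), MIR160a (0.915) and MIR848 (0.900). The libraries share their depth scaling and fall into 4 groups, and most of the sum is MIR157a and MIR157b. MIR160c, for example, held means of 306 on MS and 1163 on MS-N in Col-0, and 1352 on MS and 2269 on MS-N in the mutant.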

How the data were processed

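For 21-nt and 22-nt reads the authors' deposited tables give every locus 1 signal per group, called TPM per the file headers. From the values, each is the mean of 3 libraries, in whole reads over the library's size factor (normalized reads). The authors' log2 ratios stand beside deposited p-value and adjusted p-value columns. The authors' class table holds rpm per library. Per the submitters' processing notes, Bowtie 1.2.2, SAMtools 1.9 and TAIR10 were used. The authors' test is not given in the sources used here.

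Each mean up to 20000 normalized reads was split into the whole reads of its 3 libraries where exactly 1 combination matched, including every mean of the 10 loci. Means above 20000 were not searched. Left out were 16 loci at 21 nt, all microRNA loci, and 5 at 22 nt. They are few but abundant, and the means not split held 41.7 to 74.3% of the 21-nt column sums and 0 to 21.5% at 22 nt. They are absent from the microRNA scaling. Size factors give relative depth, and library totals are not given in the sources used here.

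The test was limma (version 3.58.1, under R 4.3.3) with its trend option, fitted once to log2(value + 1) of all 4 groups. Loci at 1 or above in 3 or more of the 12 libraries entered it, 19403 at 21 nt and 20155 at 22 nt. All of these entered the Benjamini-Hochberg adjustment, with a threshold of 0.05. The split and the fit were tried on simulated data. Simulated reads were drawn around loci already split, so the trial of the split does not cover the abundant loci not split. The fit found 190 to 197 of 200 simulated 4-fold changes per comparison, at a spread set in advance. Smaller changes, and changes at scarce loci, were not tried. A log2 change on this scale understates changes at low values, and folds are ratios of group means.

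Named are all 10 loci, genes of the lists past the threshold or among the 2 highest means of a list, and the 5 loci most alike. The members and lists were chosen with earlier results of these data known. Alternatives were other scalings, pseudocounts and filters, no trend, the compared groups alone and leaving out each library. Sequences came from RefSeq TAIR10.1 by locus identifier, and the deposited tables hold no coordinates. Python 3.11.15 was used for the rest.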

Additional observations from a re-analysis of the deposited data

Results flagged for a closer look

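MIR156f at 21 nt was the 1 locus of the family whose response to MS-N differed between genotypes by the test of the difference itself. The interaction was log2 -1.38 ± 0.35 SE, limma adjusted p = 0.0478. The 21-nt reads fell in both, 3.63-fold in Col-0, against 10.5-fold in the mutant, and in each genotype 3 of 3 MS-N libraries were below all MS libraries. Library 3 of dcl4-2 on MS, at 739, was lower than the other two, at 1985 and 2424. Leaving out 1 library, the interaction ran from log2 -1.90 to -1.04, with a limma adjusted p of up to 0.156, and it passed in 1 of 12 such fits. It did not pass with microRNA scaling, without limma's mean-variance trend, with a pseudocount of 0.1 or with no filter.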

How the results depend on the processing

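Over all loci tested, the number past the threshold was at 21 nt 1169 for medium in Col-0, 2552 for medium in dcl4-2, 270 for genotype on MS, 900 for genotype on MS-N, 90 for the interaction and at 22 nt 1282 for medium in Col-0, 3157 for medium in dcl4-2, 297 for genotype on MS, 1278 for genotype on MS-N, 413 for the interaction. The main fit tested 19403 loci at 21 nt and 20155 at 22 nt, and that with microRNA scaling 17891 and 18471. Of the 2789 loci past the threshold with microRNA scaling for genotype on MS at 21 nt, 29 were higher and 2760 lower. Counts that moved by over 1.5 times are given by setting, and the cause was not tested. With microRNA scaling they were at 21 nt 2113 for medium in Col-0, 1574 for medium in dcl4-2, 2789 for genotype on MS, 1659 for genotype on MS-N, 171 for the interaction and at 22 nt 985 for genotype on MS, 2234 for genotype on MS-N. With pseudocount 0.1 they were at 21 nt 717 for medium in Col-0, 177 for genotype on MS, 444 for genotype on MS-N, 5 for the interaction and at 22 nt 181 for genotype on MS, 795 for genotype on MS-N, 133 for the interaction. A filter of at least 10 in 3 libraries kept 2815 loci at 21 nt and 3931 at 22 nt. There 1313 passed for medium in dcl4-2 and 326 for the interaction at 21 nt, and 1680 for medium in dcl4-2 at 22 nt. As shares of the loci tested, these are larger than in the main fit. With only the 2 groups compared the count that moved at 21 nt was 1406 of 15827 loci for medium in dcl4-2. At 22 nt the counts were 1978 of 13553 for medium in Col-0 and 2084 of 16945 for medium in dcl4-2. That for genotype on MS was 197 of 14830. With no mean-variance trend the counts that moved were at 21 nt 89 for genotype on MS, 377 for genotype on MS-N and 1 for the interaction. At 22 nt they were 78 for genotype on MS, 339 for genotype on MS-N and 2 for the interaction. With pseudocount 5 they were at 21 nt 240 for the interaction. With no filter they were at 21 nt 31 of 26742 loci for the interaction. Leaving out 1 library gave 779 to 870 for medium in Col-0 at 21 nt, 178 to 268 for genotype on MS at 21 nt, 414 to 699 for genotype on MS-N at 21 nt, 2 to 205 for the interaction at 21 nt, 528 to 968 for genotype on MS-N at 22 nt, 175 to 570 for the interaction at 22 nt.

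With microRNA scaling, log2 values of these loci took the opposite sign: MIR156a -0.41, MIR156b -0.26, MIR156c -0.29 (medium in Col-0, 21 nt), MIR156a -0.13, MIR156d -0.76, MIR157a -0.45, MIR157b -0.45 (genotype on MS, 21 nt), MIR156a -0.43, MIR156b -0.29, MIR156c -0.43, MIR156d -0.40, MIR156e -0.34, MIR156f -0.25, MIR157a -0.075, MIR157b -0.075, MIR157d -0.37 (genotype on MS-N, 21 nt), MIR157c 0.017 (the interaction, 21 nt), MIR156b -0.17, MIR157a -0.017, MIR157b -0.019 (medium in Col-0, 22 nt), MIR157a -0.043, MIR157b -0.043 (medium in dcl4-2, 22 nt), MIR156d -0.22, MIR157a -0.16, MIR157b -0.16, MIR157c -0.21 (genotype on MS, 22 nt), MIR156a -0.41, MIR156b -0.72, MIR156c -0.25, MIR156e -0.20, MIR157a -0.18, MIR157b -0.18, MIR157c -0.034 (genotype on MS-N, 22 nt), MIR157a -0.026, MIR157b -0.024 (the interaction, 22 nt). With pseudocount 5, MIR157d turned to -0.064 (the interaction, 22 nt). Values that had not passed turned their sign, or for MIR157d on MS-N reached 0, when 1 library was left out, with log2 ranges of -0.014 to 0.33 for MIR156d (the interaction, 21 nt), -0.017 to 0.33 for MIR157a (the interaction, 21 nt), -0.017 to 0.33 for MIR157b (the interaction, 21 nt), -0.12 to 0.39 for MIR156b (medium in Col-0, 22 nt), -0.063 to 0.65 for MIR156d (genotype on MS, 22 nt), -0.077 to 0.39 for MIR156b (genotype on MS-N, 22 nt), 0.0 to 1.18 for MIR157d (genotype on MS-N, 22 nt), -0.27 to 0.098 for MIR156c (the interaction, 22 nt), -0.74 to 0.78 for MIR157d (the interaction, 22 nt).

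Counting MIR157a and MIR157b once moved the log2 ratio of the family sum on MS-N against MS in dcl4-2 to 0.22 at 21 nt and -0.63 at 22 nt. The 7 calls for medium at 21 nt in each genotype stood in every fit that left out 1 library, and 5 in Col-0 and 7 in dcl4-2 stood with microRNA scaling, but 4 and 3 stood without the mean-variance trend. The sum used in microRNA scaling rose less on MS-N than the whole microRNA class. Without a mean-variance trend 35 calls of the 10 loci ended, with a pseudocount of 0.1 7, and with only the 2 groups compared 7. The median-of-ratios scaling changed no call or sign among them. Low depth limits MIR157d at both lengths and MIR156d, MIR156e and MIR156f at 22 nt. No paired analysis was possible because the recovered libraries carry no replicate number.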

Other observations

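Of 6 genes of microRNA biogenesis, 3 were tested at 21 nt and 5 at 22 nt, and AGO1, the main microRNA effector, differed between genotypes in opposite directions at the 2 lengths. On MS it held 87.3 ± 3.54 21-nt reads in Col-0 and 21.6 ± 11.2 in dcl4-2 (log2 -2.11 ± 0.29 SE, limma adjusted p = 7.31e-07), and 25.7 ± 9.06 and 71.9 ± 19.1 22-nt reads (log2 1.46 ± 0.26 SE, limma adjusted p = 2.53e-04). On MS-N its 21-nt reads were also lower in dcl4-2, at 48.3 ± 6.66 beside 138 ± 12.2 (limma adjusted p = 5.16e-04), and its 22-nt reads higher (log2 1.81, limma adjusted p = 2.74e-06). These 4 results passed with microRNA scaling as well, while without the mean-variance trend 2 ended, that at 21 nt on MS-N (limma adjusted p = 0.102) and that at 22 nt on MS (0.209). AGO1 rose on MS-N in dcl4-2 at 21 nt (log2 1.26, limma adjusted p = 0.00188) and 22 nt (log2 0.99, limma adjusted p = 0.00654), but neither passed with microRNA scaling or without the trend. Among all loci on MS, 0.809% were lower in dcl4-2 at 21 nt and 0.893% higher at 22 nt. On MS-N 2.24% were lower at 21 nt and 4.22% higher at 22 nt. In dcl4-2 8.48% of all loci rose on MS-N at 21 nt and 9.9% at 22 nt.

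DCL1, which cuts microRNA hairpins, held 16.6 ± 0.881 21-nt reads in Col-0 on MS and 5.21 ± 2.37 in dcl4-2 (log2 -1.57 ± 0.40 SE, limma adjusted p = 0.0223), a call that stood in 2 of 6 fits that left out 1 library and ended without the trend (limma adjusted p = 0.194). Its 22-nt reads rose on MS-N in dcl4-2 (log2 1.16, limma adjusted p = 0.0272) and were higher there than in Col-0 (log2 1.37, limma adjusted p = 0.0173). SE, a partner of DCL1, rose at 22 nt in dcl4-2 on MS-N (log2 1.89, limma adjusted p = 0.0305). With microRNA scaling or without the trend these 3 results at 22 nt did not pass, and they stood in 3, 3 and 1 of 6 fits that left out 1 library. They count small RNAs from these genes and give no level of messenger RNA.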
